A study of Mus musculus with 2 samples.

Results

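The Agilent array used here carries, beside its gene probes, probes named only by a stretch of the mouse genome and a strand, with no gene. This account covers those of chromosome 8. They were chosen by name, as every probe other than a control whose name begins with that chromosome, and no measured value entered the choice. There are 1021 such probes of the 16181 region probes on the array. They belong to 289 of its 4607 region names, where a name is an interval and a strand. The 289 names describe 217 intervals, of which 72 carry probes to both strands and 145 to 1 strand. Overlapping intervals were joined into 127 loci, which run from position 4325209 to position 131182125. An interval spans 77 to 360001 bases (median 6988) and a name has 1 to 10 probes (median 3). Positions are those of the probe names, on mouse build mm9 per the file headers.

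Much of the mammalian genome between protein-coding genes is transcribed, and long noncoding RNAs are the best known products. They are spliced and capped like messenger RNAs but hold no long reading frame, are usually less abundant, and are often restricted to few cell types. In embryonic stem cells (ESCs), the pluripotent cells of the early embryo grown in culture, some of them act in the choice between self-renewal and differentiation. A probe to an interval reports RNA from its own short stretch alone. The files pair no gene, exon, intron or UTR with these intervals, and the gene table at hand is of another build, so the intervals are named by position and the word noncoding rests on the absence of a gene name. The probes' sequences are not printed, because no genome of build mm9 was used here.

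The study asked how overexpression of HDAC6, a largely cytoplasmic deacetylase that acts on tubulin among other proteins, alters gene expression in ESCs. The control cells are WT ESCs and the others are ESCs labelled HDAC6 overexpression. Cells of both groups were of strain B6C3F1 at passage 26, and were grown with LIF, a cytokine that holds them undifferentiated, on feeders, which are mouse fibroblasts stopped from dividing with mitomycin C. What drives HDAC6 in the overexpressing cells, and whether they are 1 clone, is not given in the sources used here. On each of 2 arrays, called biological replicates by the labels, WT RNA carried Cy3 and overexpression RNA carried Cy5, so there was no dye swap and any dye effect stays in every ratio. The deposited file names give the WT and overexpressing material the same number on both arrays, and if the RNA did not come from separate cultures the p-values measure a technical spread.

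Values are log2 ratios of the overexpression signal over the WT signal, given for each replicate or as the mean ± SD of the 2 replicates (n = 2), and signals are in the scanner's intensity units after background subtraction and dye normalization. The deposited series table runs the other way, as WT over overexpression. A probe was called higher or lower at a limma adjusted p under 0.05 over all 38472 probes that passed the filter, with 1 residual degree of freedom. Of all probes, 68.8% and 68.0% were well above background in the WT channel of replicates 1 and 2, and 68.7% and 68.6% in the overexpression channel. The 2 Hdac6 probes had mean log2 ratios of 0.089 ± 0.13 and 0.06 ± 0.14 (limma adjusted p = 0.52 and 0.67) with the processed ratios, and 0.50 and 0.52 (limma adjusted p = 9.2e-04 and 8.3e-04) with normexp and median centring. Whether these probes can see the introduced HDAC6 RNA is not known, so they do not check the labels, and directions refer to the channels as labelled.

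Markers of other cells moved between the channels. All 8 ESC markers were measured, with 1 higher and 3 lower, and their summed signal was 170842 and 182013 in WT and 149516 and 162007 in overexpression. Of 12 feeder fibroblast markers 11 were higher and 0 lower, with sums of 110129 and 93660 in WT and 209258 and 271570 in overexpression. All 10 primitive endoderm markers, of an early extra-embryonic lineage, were higher, with sums of 9060 and 9759 against 114760 and 117832. No marker of these lists was at background on either array. The part of these other cell types in the results on chromosome 8 was not tested. In bulk RNA, more cells of a type and more RNA per cell cannot be told apart.

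Of the 1021 probes, 672 (65.8%) were well above background in at least 1 channel on both arrays and are analysed. They lie under 236 names in 108 loci. Of the other 349, 305 were below that level on both arrays and 44 reached it on 1 array only. Both channels of both arrays were well above background for 613 probes, whereas 12 were dim in WT alone and 16 in overexpression alone.

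Region probes of chromosome 8 were lower in overexpression somewhat more often than higher, and the changes were placed unevenly along the chromosome. Among the 672, 138 (20.5%) were called higher and 181 (26.9%) lower. Over all 38472 probes tested, 22.8% were called higher and 22.7% lower, so the share higher on chromosome 8 is near this background and the share lower stands a little above it. Against a 1.5-fold change (limma treat) 4.02% were lower, against 4.05% of all probes and 2.96% of the region probes of other chromosomes. With 1 value per region and strand 25.8% were lower, against 24.8% of all values, among which gene probes stayed single. The excess of lower probes over all probes was thus not seen in these settings. The median of the 672 was -0.0048, with 0.007 in replicate 1 and -0.0096 in replicate 2, against 0.019 over all probes, and the middle 50% of them ran from -0.38 to 0.27. On both arrays 9 probes were higher by 2-fold or more (1.34%, against 2.72% of all probes) and 23 were lower by as much (3.42%, against 3.54%), and limma called all of them. These 2-fold counts rest on the processed ratios and fell to 2 higher and 6 lower with normexp and loess. Normexp here adds an offset of 50 to every signal, and its part in the fall was not tested.

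The 2 arrays gave similar ratios. Of the 672 probes 574 (85.4%) had the same sign on both, with Pearson r = 0.850 and Spearman rho = 0.853 across probes. Probes of a region share a target and every probe shares the dye orientation, so these coefficients describe the arrays and carry no test. Over probes, the difference between replicates had an SD of 0.320 and the mean ratio an SD of 0.555. Among the 336 brighter probes 71 were higher and 95 lower, and among the 336 dimmer ones 67 and 86.

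**Figure D1:**
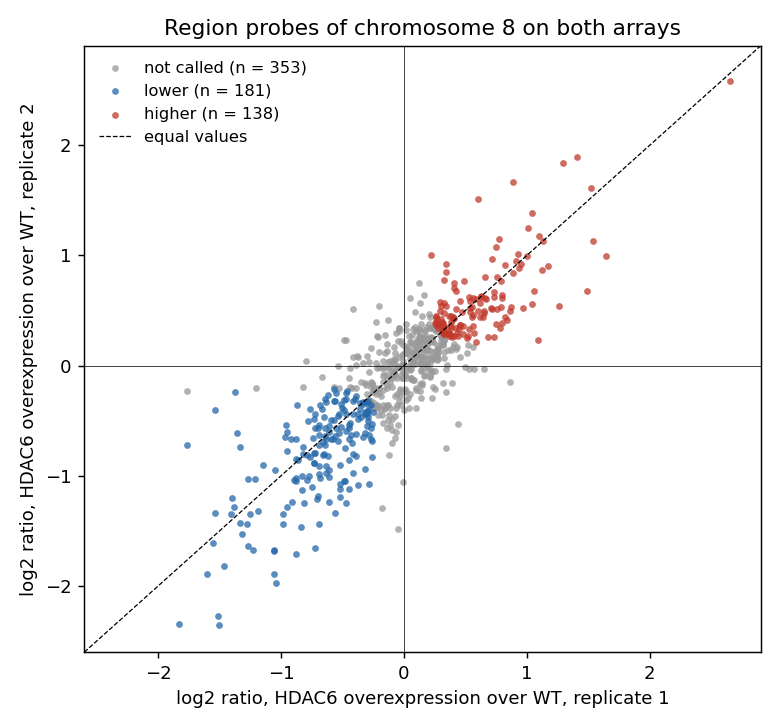
Log2 ratio of overexpression over WT in replicate 1 (x axis) and replicate 2 (y axis) for the 672 region probes of chromosome 8 that passed the filter, coloured by limma call. The 138 higher and 181 lower probes lie along the dashed line of equal values, and the point at the upper right, at 2.65 and 2.58, is a probe not well above background in WT.

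The region probes of the other chromosomes leaned the opposite way. On the other 19 chromosomes 9270 region probes passed, of which 29.5% were higher and 16.1% lower, with a median of 0.14. Chromosome 8 had the second lowest median and the second highest share of lower probes of 20 chromosomes. By that share it ranked 5 with limma treat, and by the share lower by 2-fold or more on both arrays it ranked 6. Chromosome 11 was lower still, with 14.2% higher, 39.8% lower and a median of -0.21. At the other end, chromosome 1 had 51.5% higher, 4.86% lower and a median of 0.35. The rank of the chromosome 8 median was 2 in replicate 1 and in replicate 2, and also with normexp and loess (-0.021 against 0.078 elsewhere) and with normexp and median centring (-0.043 against 0.06 elsewhere). With 2 arrays the contrast between chromosomes has no test of its own here, and neighbouring probes are not independent.

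Named genes of chromosome 8, matched through their accessions, were lower too. Of 1083 passing probes of such genes 12.4% were higher and 43.3% lower, with a median of -0.25, whereas over all named-gene probes 26.9% were lower, with a median of -0.06. Ordered along the chromosome and with the brightest probe per gene, 851 genes in 4 successive groups of 212 or 213 had 62.9%, 37.6%, 27.2% and 46.2% lower and medians of -0.52, -0.18, -0.11 and -0.29. The group nearest the chromosome's start was thus the lowest for genes, and the last group was the second lowest. Region probes near the chromosome's end differed from that last group. Those from 120 to 130 Mb were more often higher (33.7%) than lower (8.99%), although this stretch and the gene group do not match in extent.

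**Figure D2:**
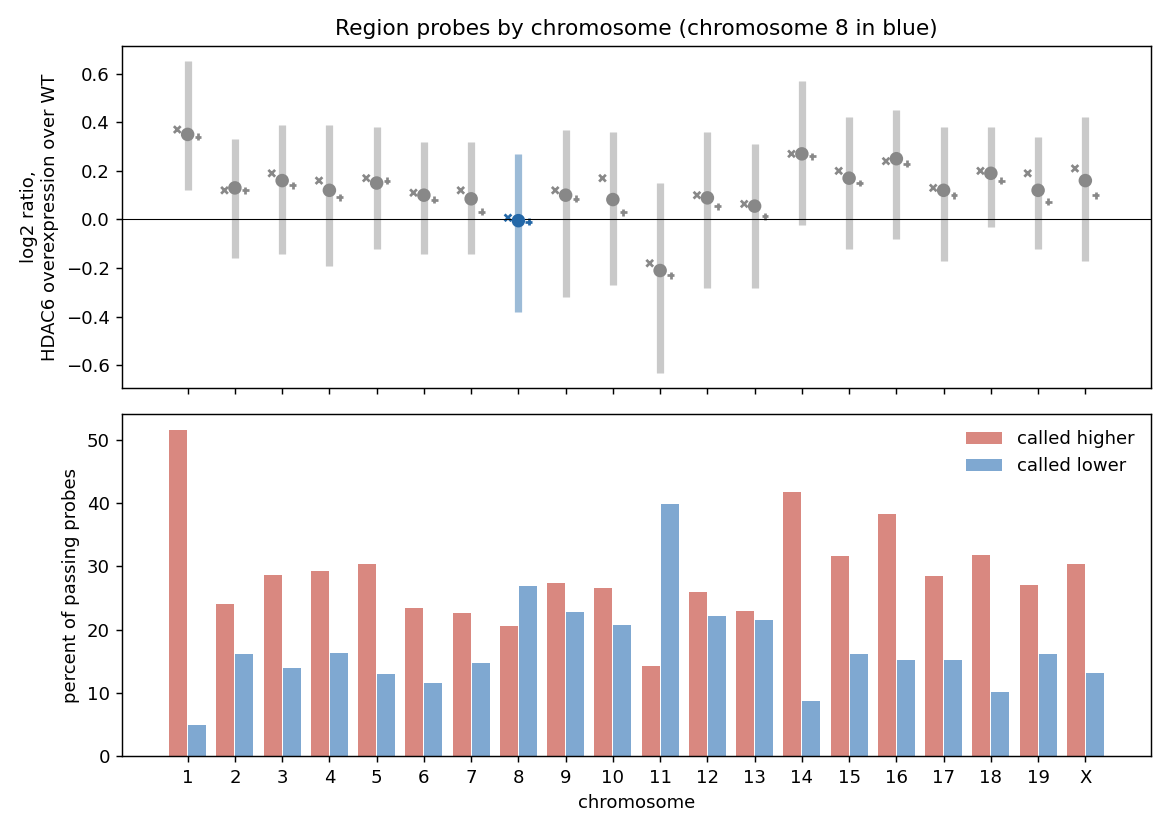
Region probes of each chromosome. Above, the median log2 ratio of overexpression over WT (circle), the middle 50% of probes (bar) and the medians of replicate 1 (x) and replicate 2 (+). Below, the percent of passing probes called higher and lower. Chromosome 8, in blue, has 20.5% higher and 26.9% lower, and of the others only chromosome 11 also has more lower than higher probes.

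Along chromosome 8 the lower probes were gathered in its first part. In windows of 10 Mb by the start of the interval, 38 of 68 probes were lower and 5 higher from 10 to 20 Mb, with a median of -0.46. From 20 to 30 Mb 31 of 61 were lower and 3 higher (median -0.38), and from 40 to 50 Mb 44 of 85 were lower and 7 higher (median -0.38). A few loci with many probes weigh heavily in these counts. The locus chr8:19678750-20038750 alone held 24 of the 38 lower probes from 10 to 20 Mb. With each locus counted once by its median, the medians of the 3 windows were -0.32, -0.11 and -0.29. These 3 windows ranked 4, 6 and 5 in share of lower probes among 180 windows of the genome with at least 20 passing probes. Together they hold 214 probes in 33 loci, of which 113 (52.8%) were lower and 15 higher, and 20 of the 23 probes lower by at least 2-fold. Elsewhere on the chromosome 68 of 458 probes in 75 loci were lower (14.8%) and 123 higher, with a median of 0.095. The windows were singled out after their values were seen, so the split is a description.

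Between them, the window from 30 to 40 Mb went the other way, with 13 of 33 probes higher, 2 lower and a median of 0.28. The window from 80 to 90 Mb had 22 of 42 higher, 3 lower and a median of 0.34, and ranked 16 of the 180 in share of higher probes. From 120 to 130 Mb 30 of 89 were higher and 8 lower (median 0.20). With each locus counted once, the medians from 30 to 40, 80 to 90 and 120 to 130 Mb were 0.25, 0.12 and 0.22. From 50 to 80 Mb and from 90 to 120 Mb the medians over probes lay between -0.12 and 0.10. From 100 to 110 Mb the median was -0.11 over probes but 0.18 with each locus counted once. The windows from 70 to 80 Mb (0.023) and from 110 to 120 Mb (0.043) turned to -0.0087 and -0.056 with median centring, and give no direction.

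**Figure D3:**
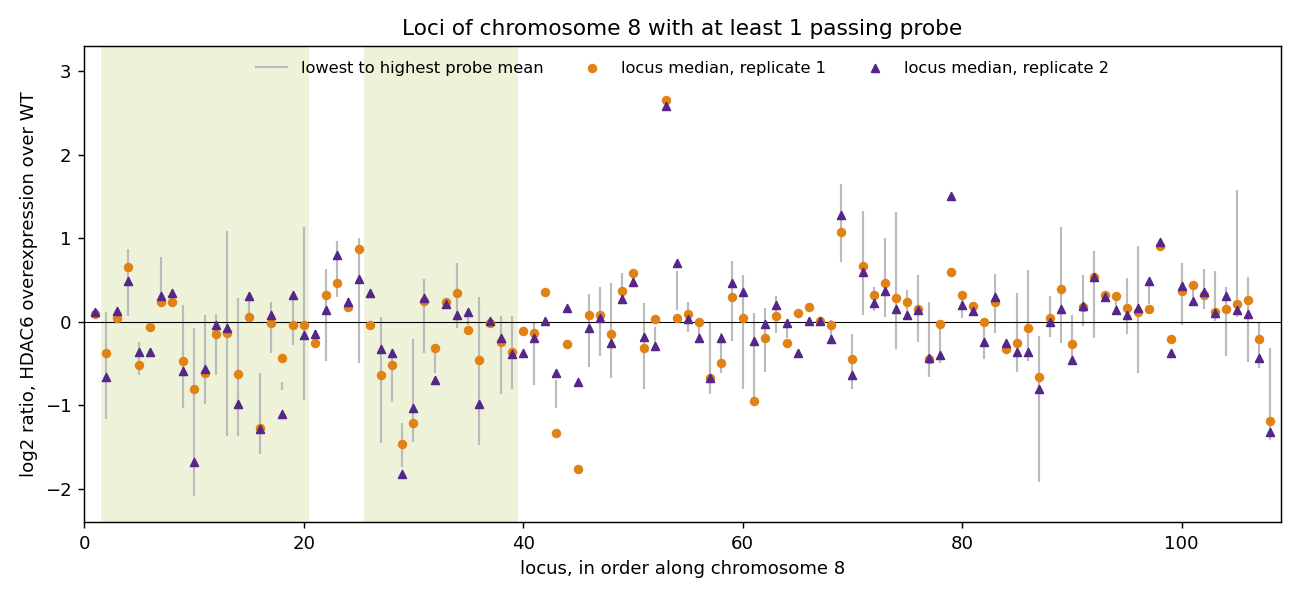
Median log2 ratio of overexpression over WT in replicate 1 (circles) and replicate 2 (triangles) of the 108 loci with a passing probe, in order along chromosome 8, with a grey line from the lowest to the highest probe mean. The shaded loci are the 33 that start from 10 to 30 Mb and from 40 to 50 Mb, where 113 of 214 probes were lower.

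Probes of the same locus mostly moved together. Among 73 loci with at least 3 passing probes, 9 had no called probe, 9 had 1 and 55 had at least 2. Of the 55, the calls of 42 were all in 1 direction and those of 13 in both. More than 50% of the probes were lower in 18 loci and higher in 8. The medians of all of these kept their sign with loess and with median centring, but these settings use the same arrays and are no separate support. Loci of other chromosomes were not counted in this way. Of the 18, 11 lie in the 3 low windows, as did 0 of the 8 and 21 of all 73. Those windows were picked by the values of the same probes, so this placing is no separate result. Within a name with at least 3 passing probes the SD between probes had a median of 0.174, against an SD of 0.530 between the medians of the 118 such names. The loci described next were chosen after their values were seen.

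Among loci with at least 3 passing probes, the highest median was at chr8:85609155-85615170. Its 8 probes, 2 to the forward and 6 to the reverse strand, were all higher, with a median of 1.18 (1.07 in replicate 1 and 1.28 in replicate 2). The forward probe A_30_P01023140 had signals of 151 and 178 in WT and of 401 and 659 in overexpression, and its mean log2 ratio was 1.65 ± 0.34 (limma adjusted p = 1.0e-03). The reverse probe A_30_P01027838 went from 135 and 159 to 330 and 570 (1.57 ± 0.39), and the forward probe A_30_P01031631 from 666 and 890 to 1365 and 2320 (1.21 ± 0.24). The overexpression signal was above the WT signal on both arrays for each of these 3 probes. The reverse probe A_30_P01025082 had 68.5 and 83.6 against 147 and 190 (1.14 ± 0.056). A_30_P01020688, also reverse, was not well above background in WT and was at least 1.66-fold higher. Such a bound sets the mean of the bright channel against the lowest signal that counts as well above background, or the dim probe's own if higher. It was computed after normexp, loess and between-array normalization and is open to dye bias. With normexp and loess the median of the locus was 0.71, and all 8 probes stayed called higher.

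Probes of other loci rose by less. At chr8:72663591-72673010, 16 of 22 probes were higher and 0 lower, with a median of 0.39 (0.29 and 0.46), and WT signals from 691 to 13130 in replicate 1 were well above background. At chr8:37582157-37621987, inside the stretch between the low windows, 9 of 12 were higher and 1 lower, with medians of 0.87 and 0.51 in the replicates. At chr8:87504644-87514107, 9 of 13 were higher and 0 lower (0.46 and 0.37). The reverse probe A_30_P01030166 of that locus had 1278 and 1323 in WT and 2558 and 2633 in overexpression, a rise of 2.00-fold, and fell just short of the 2-fold line with 0.99 in replicate 2. Of 5 probes at chr8:86705694-86711244, 4 were higher, with a median of 0.64.

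Among the same loci, chr8:41475940-41476460 had the lowest median, -1.64, over 3 forward probes that were all lower. Signals of A_30_P01026355 were 276 and 346 in WT and 91.2 and 93.3 in overexpression, a mean log2 ratio of -1.74 ± 0.21 (limma adjusted p = 5.1e-04). A_30_P01029190 went from 470 and 551 to 171 and 156 (-1.64 ± 0.26), and A_30_P01025530 from 1118 and 1467 to 567 and 543 (-1.21 ± 0.32). The WT signal was above the overexpression signal on both arrays for each. The last of them missed the 2-fold line at -0.98 in replicate 1.

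At chr8:41730287-41746862, in the same window, 10 of 11 probes were lower and 6 were lower by at least 2-fold on both arrays, on both strands, with a median of -1.12. A_30_P01024917 (forward) had 211 and 196 in WT and 72.6 and 77.3 in overexpression (-1.44 ± 0.14). The forward probe A_30_P01028286 had -1.30 ± 0.068, and A_30_P01033543, also forward, -1.15 ± 0.17. Of the reverse probes A_30_P01027506 had -1.12 ± 0.13. A_30_P01018907 had -1.30 ± 0.14 with the overexpression channel well above background on 1 array, and A_30_P01019860, dim in overexpression on both, was at least 1.38-fold lower. The median was -0.68 with normexp and loess, with the same number of lower probes.

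At chr8:26866152-26872502 all 9 probes were lower, with a median of -1.33 (-1.27 and -1.28). The strongest values were in 2 short reverse intervals inside it. In chr8:26869173-26869823 A_30_P01018676 went from 214 and 259 to 72.9 and 84.7 (-1.58 ± 0.042, limma adjusted p = 4.3e-04), A_30_P01032478 from 285 and 314 to 118 and 101 (-1.45 ± 0.26), and A_30_P01022296 from 235 and 257 to 90.2 and 106 (-1.33 ± 0.072). In chr8:26870938-26871438 A_30_P01030996 went from 484 and 505 to 182 and 198 (-1.38 ± 0.045), while A_30_P01023708 was dim in overexpression and at least 1.61-fold lower. The forward and the reverse probe of the whole span fell by less, with -0.63 ± 0.057 and -0.61 ± 0.11. With normexp and loess the median of the locus was -0.77, and 8 of the 9 were called.

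The locus chr8:18895366-18925423 held 3 of the 12 lowest called probes. The reverse probe A_30_P01029210 had 340 and 415 in WT and 120 and 86.4 in overexpression (-1.89 ± 0.54, limma adjusted p = 0.0015), and A_30_P01031466 had 514 and 596 against 251 and 153 (-1.50 ± 0.66). The forward probe A_30_P01021286 read 54.8 and 45.6 in WT and 15.4 and 8.99 in overexpression, which was dim on both arrays, so it was at least 1.49-fold lower. The arrays differed in the size of the change, with medians of -0.80 in replicate 1 and -1.68 in replicate 2 over 8 probes, 6 of them lower. With normexp and loess the median was -0.55 in place of -1.24, with 7 of the 8 called lower.

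The widest locus, chr8:19678750-20038750, holds 11 names, and 24 of its 32 passing probes were lower and 0 higher, with medians of -0.61 and -0.57. None passed 2-fold on both arrays, and probe means ran from -0.98 to 0.084. At the forward interval chr8:19792940-19798868 inside it, A_30_P01028290 had 18732 and 21921 in WT and 10513 and 9991 in overexpression (-0.98 ± 0.21). The probes of the whole span fell on both strands, from 21202 and 23851 to 12832 and 13819 for the forward probe A_30_P01023006 (-0.76 ± 0.044) and from 747 and 1036 to 530 and 499 for the reverse probe A_30_P01033267 (-0.77 ± 0.40). Names of both strands of the whole span thus fell by similar log2 values.

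At chr8:26343277-26352902, 13 of 14 probes were lower (median -0.81), led by A_30_P01023451 of chr8:26347473-26348052 with 295 and 314 against 141 and 97.9 (-1.37 ± 0.44). Probes were lower in 8 of 9 cases at chr8:40100925-40196350 (median -0.48) and in 9 of 10 at chr8:40238025-40264250 (median -0.44). In the first of these, A_30_P01031834 was dim in overexpression and at least 1.48-fold lower. At chr8:48476637-48492537, 7 of 12 were lower (-0.77), among them A_30_P01023531, dim in overexpression and at least 1.53-fold lower. The low loci of these windows thus include short intervals and long spans.

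Outside the 3 low windows lay 7 of the 18 loci with mostly lower probes. At chr8:71938275-72113375, 10 of 11 probes were lower, with a median of -0.64 (-0.67 in each replicate), in the same window as chr8:72663591-72673010, where probes rose. Near the chromosome's end, 2 of the 3 reverse probes at chr8:129336539-129400338 were lower by over 2-fold, A_30_P01022806 from 342 and 293 to 137 and 102 (-1.42 ± 0.14) and A_30_P01026746 from 504 and 468 to 221 and 187 (-1.25 ± 0.095). The other probe, at -0.31, was not called. A_30_P01020374 at chr8:111766396-111772271 was dim in overexpression, with 35.8 and 38.8 against 102 and 197 in WT, and was at least 2.03-fold lower. Of the 4 probes of its name only this 1 passed the filter.

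**Figure D4:**
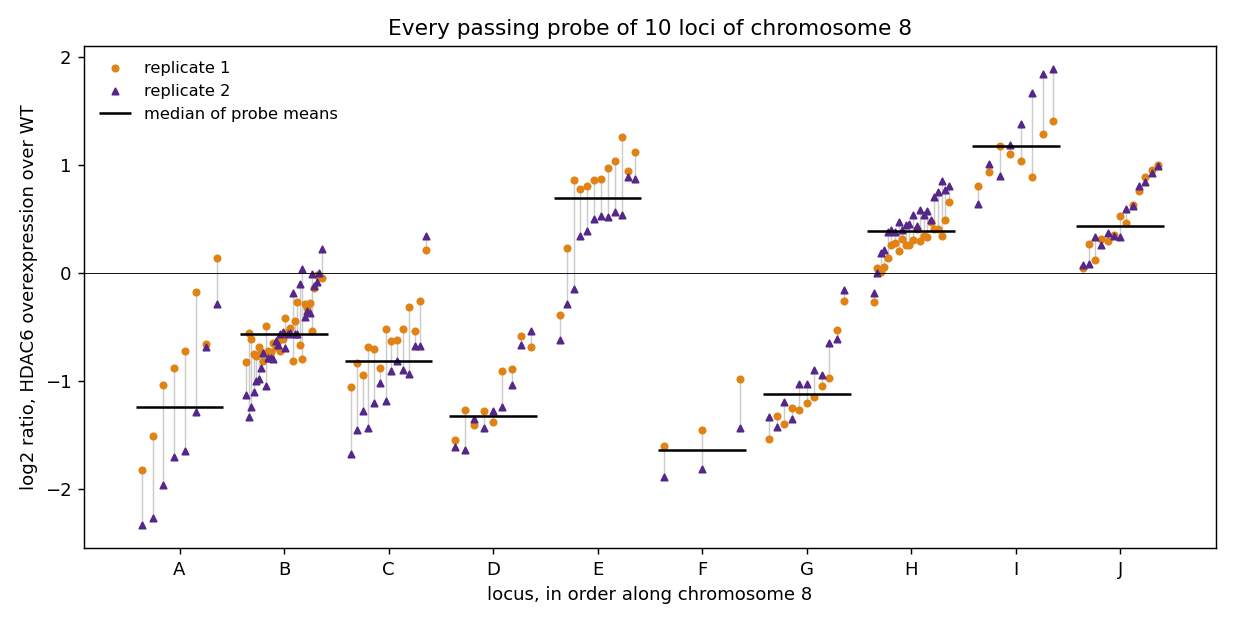
Log2 ratio of overexpression over WT of every passing probe in replicate 1 (circles) and replicate 2 (triangles), with a black line at the median of the probe means, for 10 loci in order along the chromosome. A starts at 18895366, B at 19678750, C at 26343277, D at 26866152, E at 37582157, F at 41475940, G at 41730287, H at 72663591, I at 85609155 and J at 87504644. Every probe of D, F and G is below 0 and every probe of I and J above 0 in both replicates.

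Of the 9 probes higher by at least 2-fold on both arrays, 4 were dim in WT and have only a bound. A_30_P01027592 of the forward interval chr8:70719179-70719686 read 17.1 and 19.2 in WT and 108 and 114 in overexpression. It was at least 1.72-fold higher (limma adjusted p = 1.1e-04), and was the only 1 of the 3 probes of its name to pass the filter. The bounds were 1.30-fold for A_30_P01029455 at chr8:126396600-126407275, 1.35-fold for A_30_P01018314 at chr8:86706637-86707004 and 1.39-fold for A_30_P01018014 at chr8:114477602-114488627. A_30_P01033164 at chr8:90000619-90061169, also dim in WT, stayed just below the 2-fold line with 0.99 in replicate 2 and was at least 1.32-fold higher. Among the higher probes measured in both channels, A_30_P01032738 at chr8:28345511-28361105, the nearest to the line from above, had 78.4 and 69.2 in WT and 157 and 164 in overexpression (1.13 ± 0.17).

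The 6 probes of highest mean intensity were not called. The reverse probes A_30_P01017859, A_30_P01018350 and A_30_P01019717 of chr8:106592650-106603525 had 0.19 ± 0.085, 0.10 ± 0.13 and 0.18 ± 0.073. The forward probe A_30_P01031572 of chr8:74820025-74833350 had -0.19 ± 0.28, and A_30_P01026014 and A_30_P01017892 of chr8:27912000-27992750, also forward, had -0.28 ± 0.24 and -0.15 ± 0.25. These bright probes depend on the dye normalization. With normexp and loess the 3 probes of chr8:106592650-106603525 had a median of 0.34, and 2 of them were called higher. Median centring alone gave 1.38, 1.22 and 0.79 for the first 3 and turned the other three to 0.74, 0.45 and 0.49, and each of these had a limma adjusted p under 0.05.

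The names with the most passing probes showed small changes. The forward name of chr8:119732348-119749198 had 10 passing probes, 2 of them higher, with a median of 0.16. At chr8:72663625-72673010, 6 of 9 reverse probes (median 0.42) and 5 of 8 forward probes (0.35) were higher. At chr8:91569369-91594119, 2 of 9 reverse (0.051) and 3 of 7 forward probes (0.12) were higher. The forward name of chr8:67542714-67561694 had 1 lower among 8 (-0.13). No probe of these names passed 2-fold on both arrays.

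On chromosome 8 the share of calls varied with the length of the interval. Of 108 passing probes to intervals under 2 kb 13.9% were higher and 35.2% lower, of 202 to intervals from 2 to 10 kb 21.8% and 30.7%, and of 362 to longer ones 21.8% and 22.4%. The filter was passed by 56.8%, 76.2% and 64.0% of the probes of these classes, which does not follow length. These classes were set after the data were seen, and their probes come from shared loci. They were not set against the same classes on other chromosomes, so the pattern is not shown to be particular to chromosome 8.

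Probes to the named forward and reverse strands are equal in number, 509 and 512, and 344 and 328 passed. Of the forward probes 74 were higher and 70 lower (20.3%), and of the reverse probes 64 were higher and 111 lower (33.8%), with medians of 0.041 and -0.046. On the other chromosomes the lower shares were 15.4% and 16.8%, and over all probes tested 22.7% were lower. The higher shares of forward and reverse probes were 21.5% and 19.5% on chromosome 8 and 31.5% and 27.5% on the others. Probes come from shared loci, so a few loci can weigh heavily in these shares, and the gap between strands was not tested. Whether the labelling kept the strand of the RNA is not stated, so a strand here is that of the probe's name and no direction of transcription is read from it.

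Within an interval the strands mostly moved alike. Of 56 intervals with passing probes on both strands, 45 had the same sign on both, with Pearson r = 0.686 and Spearman rho = 0.639 across intervals of the same arrays, and the median absolute difference was 0.224. The difference of forward minus reverse was called by limma in 15 of the 56 (26.8%), close to the 24.0% of 865 intervals of all chromosomes called in the same fit. In 11 the forward probes were above and in 4 the reverse, 6 of the 15 had means of opposite sign, and in 6 a strand rested on 1 probe. A limma test against a 1.5-fold difference called 0 of the 56, with 4 at an unadjusted p under 0.05, against 15 called and 27 at an unadjusted p under 0.05 in the test against no difference.

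At chr8:28345511-28361105 the strands had means of opposite sign. Its 2 forward probes averaged 0.62 and 0.59 in replicates 1 and 2 and its 2 reverse probes -0.50 and -0.72, a difference of 1.21 ± 0.14 (limma adjusted p = 0.014). The averages rest mainly on 1 called probe per strand, since the forward probes had 0.085 and 1.13 and the reverse probes -0.28 and -0.94. At chr8:26212577-26218527 only 1 of 5 forward probes passed the filter, so the forward value rests on that probe. It was A_30_P01027726, which rose from 3144 and 3390 to 8807 and 5420 (1.08 ± 0.57). The 4 passing reverse probes averaged -0.14 and -0.51, a difference of 1.41 ± 0.30 (limma adjusted p = 0.016). The reverse probes did not move as one, since 1 was higher, 2 were lower and 1 was not called, and A_30_P01028905 was dim in overexpression and at least 1.37-fold lower. With probes well above background in both channels the difference was 1.06. The reverse mean was then 0.023 (0.17 and -0.13) in place of -0.32, so the strand means no longer had opposite signs. At chr8:60132300-60146830 the order was turned, with 4 forward probes at -0.25 and -0.57 and 1 reverse probe at 0.42 and 0.51. This reverse probe was the only 1 of 5 to pass the filter. The difference was -0.87 ± 0.29 (limma adjusted p = 0.026), and -0.77 with the 2 forward probes well above background in both channels.

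In other intervals 1 strand carried most of the change. At chr8:48476637-48492537 the 4 reverse probes averaged -0.76 and -1.23 and the 5 forward probes -0.05 and -0.21, a difference of 0.87 ± 0.22 (limma adjusted p = 0.022), and 0.73 with the 2 reverse probes well above background in both channels. At chr8:93337794-93348869 3 reverse probes averaged -0.52 and 1 forward probe, the only passing one of 3, had 0.24 (difference 0.76 ± 0.10, limma adjusted p = 0.021). The call at chr8:126396600-126407275 rests on A_30_P01029455, a forward probe dim in WT. Its other forward probe had 0.057 and its reverse probe 0.085, and without the dim probe the difference was -0.028 ± 0.31 (limma adjusted p = 0.89).

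**Figure D5:**
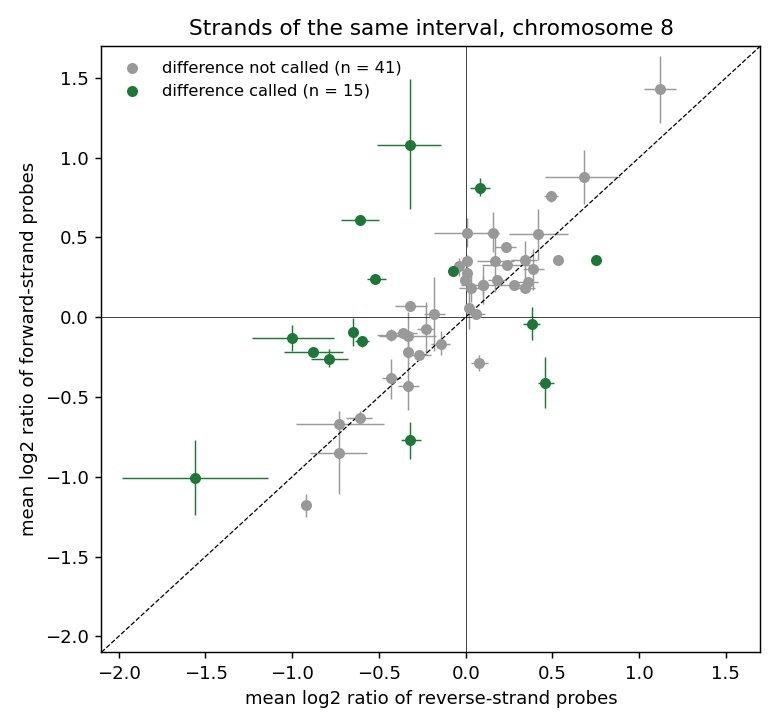
Mean log2 ratio of the forward-strand probes (y axis) and of the reverse-strand probes (x axis) for the 56 intervals of chromosome 8 with passing probes on both strands. Each line spans replicates 1 and 2, the dashed line marks equal strands, and green marks the 15 intervals whose difference limma called. In 45 of the 56 both strands lie on the same side of 0.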

How the data were processed

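Two-colour arrays of WT and HDAC6-overexpressing ESCs were scanned and quantified in Agilent Feature Extraction 11.5.1.1, per the file headers. The deposited processed intensity of each channel had its background subtracted and its dyes normalized by that software (linear and lowess), and raw median intensity values of spot and local background stand beside it, per the file headers. The deposited log10 ratio is that of processed Cy5 over processed Cy3. The deposited series table holds log2 values that correlated at -1 with the scanner ratios, so its direction and scale were found by that comparison. Its column medians were -0.00742 and 0.0624, and any further centring is unknown.

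Outlier-marked spots (269 and 313) were left out and 0 spots were saturated. Repeat spots were averaged per probe. Among 55681 probes, 38472 were well above background in either channel on both arrays. The log2 of processed Cy5 over Cy3 was tested against 0 with limma 3.58.1 in R 4.3.3 (lmFit, eBayes, two-sided, Benjamini-Hochberg over all probes), with 4.62 prior degrees of freedom. The same test was made of forward minus reverse means over 865 intervals. The test of single probes was also run on simulated independent probes with no dye effect, which does not check the calls made here. Raw signals were corrected with normexp (offset 50) for alternatives and bounds. Of 39500 gene probes, 26762 had 1 symbol through RefSeq accessions (table of assembly GRCm38.p6), used for names, chromosomes and gene order only.

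Probes named are the 12 highest and 12 lowest called, every probe at least 2-fold changed on both arrays, the 3 nearest each side of that line and the 6 brightest, with the 6 names of most passing probes and 6 called strand differences. Others were picked after their values were seen. The members, lists and rules were chosen with earlier results of these data known. The number of arrays limits the precision.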

Additional observations from a re-analysis of the deposited data

How the results depend on the processing

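Alternatives were run for the 43 probes taken by the naming rule, and their directions held except for bright probes that were not called. Only 29 of the 43 had a value where both channels had to be well above background on both arrays. A_30_P01031572 turned to 0.085 with normexp and loess and to 0.74 with median centring, and median centring gave 0.45 for A_30_P01026014 and 0.49 for A_30_P01017892. The counts of 138 higher and 181 lower probes stayed within 1.5 times in the other settings, but fell to 11 and 27 against a 1.5-fold change (limma treat), and were 45 and 61 of 236 with 1 value per region and strand, where the lower shares were near those over all features (4.02% against 4.05%, and 25.8% against 24.8%). A single array leaves no test for calls. The 9 probes higher by 2-fold became 2 with loess, 3 with median centring and 5 with both channels above background, and 14 to 18 from a single array. The 23 lower became 6, 7 and 15, and 32 to 57 from a single array. Called strand differences went from 15 to 25 with loess, 24 with median centring, 1 with no filter and 0 with treat (4 at an unadjusted p under 0.05), while over all chromosomes the count went from 208 to 349, 333, 16 and 14. The median of -0.0048 was -0.021 with loess, -0.043 with median centring and -0.032 with no filter, and -0.0096 to 0.007 from a single array. The causes were not tested. The deposited series table, sign turned, gave the same counts. Each array holds both channels and the ratio within it is the replicate, so the tests pair WT and overexpression by array. Dim signal limits 12 probes (WT) and 16 probes (overexpression) to a bound.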
